A study of Mus musculus with 71 samples.

Results

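The genes described here are Camk2a and its neighbours on the chromosome in mouse brain: Camk2a, Arsi, Slc6a7, Tcof1, Cd74, Ndst1, Synpo, Myoz3 and Rbm22. They were chosen because the Camk2a promoter drives the Cre recombinase that made most of the mutants of the study. Of the 9 genes, 8 have an annotated probe set on the array, 17 probe sets in all, among 18193 measured genes. Ndst1 was not analysed here. Where a gene had several probe sets, the one with the highest average over the 71 arrays was read. The study asked what is lost to gene silencing when GLP (gene Ehmt1) or G9a (gene Ehmt2) is removed from neurons. The partner enzymes methylate lysine 9 of histone H3. In 59 tissue arrays the mutants were Camk2a-Cre with 2 floxed alleles of GLP or of G9a, and the controls were littermates with the same floxed alleles and no Cre. Total RNA was taken from each of 4 regions (hippocampus, hypothalamus, striatum and cortex), with 4 arrays in a group except for 3 controls in the G9a hippocampus and 2 mutants and 2 controls in the G9a cortex. The other 12 arrays, 3 in a group, held messenger RNA bound to tagged ribosomes of striatal medium spiny neurons (MSN). Drd1-MSN mutants carried Drd1-Cre, the Drd1-bacTRAP ribosome tag and floxed G9a, and Drd2-MSN mutants carried Drd2-Cre, Drd2-bacTRAP and floxed G9a. The pool controls carried the same tag and floxed alleles without Cre. All mice were 10 to 14 weeks old, and each pool held RNA from 5 mice. By the labels, Camk2a-Cre was therefore present in tissue mutants only.

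Camk2a encodes the alpha subunit of calcium/calmodulin-dependent protein kinase II, an abundant protein of excitatory synapses in the forebrain that is needed for long-term potentiation. Its promoter turns on after birth in forebrain principal neurons, which is why Camk2a-Cre lines delete genes there and spare most other cells. Genes next to each other need not share a function, and these do not: Slc6a7 is a brain proline transporter at excitatory synapses, Arsi is a sulfatase, Cd74 is the invariant chain that guides MHC class II molecules, Tcof1 helps to transcribe ribosomal RNA genes, Synpo organises actin and the spine apparatus in dendritic spines, Rbm22 is a splicing factor and Myoz3 is a protein of the muscle Z-disc. Along the chromosome, the RefSeq gene table places Rbm22, Myoz3, Synpo, Ndst1, Rps14, Cd74, Tcof1, Arsi, Camk2a and Slc6a7 in that order among protein-coding genes, so that Arsi and Slc6a7 flank Camk2a.

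Levels are the authors' intensities on a log2 scale, on which 0 is the median of an array. A change is the mean of the mutants minus the mean of the controls, with the standard error (SE) of limma's moderated test. A gene passed where its p, adjusted by Benjamini-Hochberg over all genes tested in that comparison, was under 0.05. In whole tissue, fewer cells that express a gene and less RNA per cell cannot be told apart. The p-values measure only the spread between these arrays, and the number of arrays limits the precision. Ehmt1 fell in 3 of the 4 GLP regions, with its change in the hypothalamus at -0.16 (limma, adjusted p = 0.711), and Ehmt2 fell in all 4 G9a regions, between -1.76 and -1.02. In the pools the change in Ehmt2 was -2.04 (Drd1-MSN) and -0.08 (Drd2-MSN), neither past the test, while Dach2, a gene that rose in all 8 tissue comparisons, rose in both as well. Marker sums went with the region labels. The 8 measured medium spiny neuron markers summed to 2143 to 2972 over the pools and 1252 to 1734 over the striatum. The 8 hypothalamic markers summed to 411 to 721.1 in the hypothalamus and at most 38.7 in the other regions. Drd2 averaged 6.44 and 6.79 in Drd2-MSN mutants and controls, against 3.78 and 3.96 in Drd1-MSN. Drd1 did not go with the pool names, at 8.41 and 8.46 in Drd2-MSN, against 8.09 and 8.11 in Drd1-MSN. Oligodendrocyte markers summed to 1627 to 2339 over the pools and 1891 to 2458 over the striatum. The purity of the pools was not tested.

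Around Camk2a, 3 genes stood out in the tissues. Arsi, Slc6a7 and Cd74 were higher in mutants in 8 of 8 tissue comparisons, with mean changes of 1.07, 1.07 and 0.77. Slc6a7 was bright enough to be tested in 8 of them, Cd74 in 6 and Arsi in 4. The means of Arsi and Cd74 thus include levels below the array median. The share of all genes higher in 8 of 8 was not counted. Of 33 protein-coding genes within 1 megabase, 27 had a probe set, and the mean tissue change of the other 24 lay between -0.07 and 0.14. Camk2a itself, between Arsi and Slc6a7, had a mean change of -0.00, and Tcof1, between Cd74 and Arsi, one of 0.09. Of the 24, 5 were too dim to be tested in any tissue, so that their means cannot show whether they moved. Camk2a and Tcof1, which were bright enough, thus lay between genes with such a shift.

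**Figure D1:**
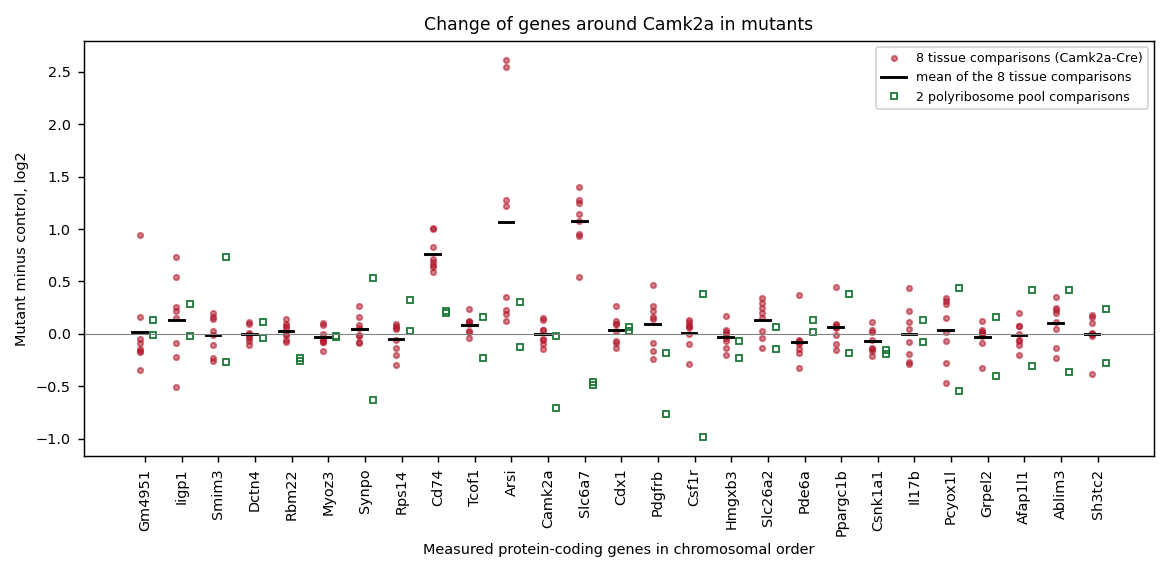
Change of the 27 measured protein-coding genes within 1 megabase of Camk2a, in chromosomal order (evenly spaced, not to scale); the y axis is the log2 difference, mutants minus controls. Red points are the 8 Camk2a-Cre tissue comparisons, black lines their mean and open green squares the 2 polyribosome pool comparisons. Cd74, Arsi and Slc6a7 have means of 0.77, 1.07 and 1.07, and the mean of every other gene lies between -0.07 and 0.14.

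In the 10 comparisons of mutants with controls, each taken alone, Arsi passed in the GLP hippocampus, where 2.05% of genes passed, and in the G9a hippocampus, where 2.72% did. No other of the 8 genes passed in any comparison. The share of all tested genes that passed was 1.01% in the GLP hypothalamus, 1.67% in the GLP striatum, 1.54% in the GLP cortex, 2.34% in the G9a hypothalamus, 3.02% in the G9a striatum, 0.728% in the G9a cortex, 0.0249% in Drd1-MSN and 0.0165% in Drd2-MSN. The other 19 measured genes within 1 megabase passed in none either. An average of the 8 tissue changes, added after the values had been seen, is given with each gene below. It takes all arrays as independent, though the sources used here do not give whether regions share mice. If they do, the p-values of this average and of its difference from the pools can be too small. In that average 10.9% of all tested genes passed, and 6.86% of all tested genes passed as higher in mutants. Arsi, Slc6a7 and Cd74 were among the latter.

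Slc6a7, the proline transporter, was well above the array median in all regions. In the GLP hippocampus it stood at 7.07, 6.86, 6.66 and 6.87 in mutants, against 5.00, 5.25, 5.01 and 7.12 in controls. In the GLP cortex it stood at 6.44, 6.36, 6.27 and 6.38 in mutants, against 4.94, 4.96, 4.84 and 6.40 in controls. In both regions 3 of the 4 controls lay over 1 unit below every mutant, and control 4 lay among or above the mutants. The GLP hypothalamus had 4.41, 4.91, 4.94 and 4.89 in mutants, against 3.23, 3.52, 3.95 and 4.70 in controls. The GLP striatum had 5.16, 4.81, 4.38 and 4.01 in mutants, against 3.27, 3.23, 3.44 and 4.61 in controls. Control 4 was again the 1 control that overlapped the mutants.

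The G9a line gave the same picture with other numbers. The G9a hippocampus had 7.28, 7.19, 7.14 and 7.16 in mutants, against 5.08, 7.50 and 5.25 in controls. The G9a striatum had 5.20, 5.14, 4.90 and 5.08 in mutants, against 3.18, 3.90, 4.99 and 3.68 in controls. The G9a hypothalamus had 6.02, 5.79, 4.97 and 5.31 in mutants, against 4.96, 4.75, 4.79 and 5.41 in controls. Here the overlapping controls were control 2 of the hippocampus, control 3 of the striatum and control 4 of the hypothalamus. In the G9a cortex, with 6.39 and 6.30 in mutants against 4.93 and 4.95 in controls, no control overlapped, as for 18.4% of genes with 2 arrays a group.

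**Figure D2:**
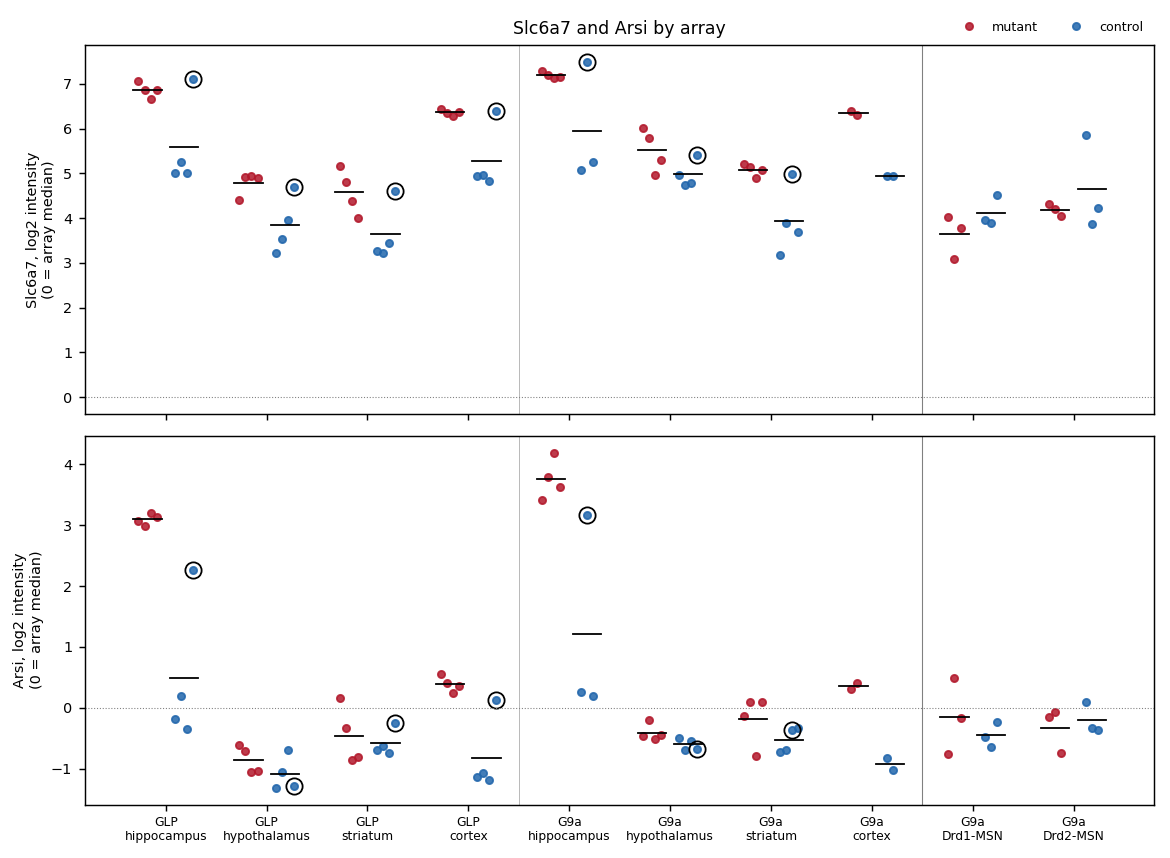
Levels of Slc6a7 (upper panel) and Arsi (lower panel) in each of the 71 arrays, as log2 intensity with 0 at the array median. Red points are mutants, blue points controls, black lines group means, and rings mark the 7 control arrays whose Slc6a7 lies above the lowest mutant of its region. In the GLP hippocampus the ringed control has Slc6a7 at 7.12 and Arsi at 2.27, where the other controls lie at 5.00 to 5.25 and -0.35 to 0.20.

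With all arrays, the change in Slc6a7 lay between 0.54 in the G9a hypothalamus and 1.40 in the G9a cortex. The lowest adjusted p was 0.0829, in the GLP hippocampus (change 1.27, SE 0.39). The average over the 8 tissues was 1.07 (SE 0.15, limma, adjusted p = 1.56e-07). As 1 control array decided the call in several regions, the values without it follow. Leaving out control 4, the change was 1.78 in the GLP hippocampus (adjusted p = 0.00218) and 1.45 in the GLP cortex (adjusted p = 0.0460), both by limma. Leaving out control 2 of the G9a hippocampus it was 2.03 (limma, adjusted p = 0.00196), and leaving out control 3 of the G9a striatum 1.50 (limma, adjusted p = 0.0257). In the other 3 regions it was 1.22 (GLP hypothalamus), 1.27 (GLP striatum) and 0.69 (G9a hypothalamus), none past the test. These arrays were picked by their Slc6a7, so that larger changes without them follow in part from the choice, and they are given as a description of what the calls rest on.

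In the striatum, markers of forebrain excitatory neurons were set beside Slc6a7, and they moved with it in the G9a line. In the G9a striatum 4 of the 5 measured rose, the transcription factors Neurod2 (1.79), Neurod6 (2.88) and Tbr1 (1.99) and the vesicular glutamate transporter Slc17a7 (2.09), and their sums were 40.9, 34.7, 25.0 and 31.6 in mutants, against 18.6, 21.9, 47.0 and 14.2 in controls. Control 3, the array whose omission gave the call for Slc6a7 there, was thus the 1 control with marker levels as high as in the mutants. Markers of medium spiny neurons ran the other way there, at 1252 to 1508 in mutants, against 1546 to 1734 in controls. In the GLP striatum the sums were 90.3, 50.8, 31.5 and 33.2 in mutants, against 29.0, 38.5, 44.3 and 50.4 in controls, and none of the 5 passed. Mutant 1 and control 4 each had the highest sum and the highest Slc6a7 of their group. Mutants 3 and 4, with lower sums than control 3, had higher Slc6a7, at least 4.01 against 3.44. In the other 5 overlapping control arrays the sum was not the highest of the controls. The part of these markers in the changes of Slc6a7 was not tested.

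The 7 overlapping control arrays were read for other genes. Dach2, between 4.33 and 6.02 in tissue mutants, was between -1.74 and 1.59 in these arrays and below every mutant of its region in 7 of 7. The gene that the line deletes was above every mutant in 6 of 7 and below every other control in 6 of 7. In the G9a line Ehmt2 in these arrays was 4.95, 4.54 and 4.77, against 5.46 to 5.47, 5.00 to 5.42 and 5.41 to 5.52 in the other controls of the hippocampus, hypothalamus and striatum, and at most 4.31, 4.27 and 4.16 in the mutants. Arsi was above every other control in 4 of 7, and Cd74 in 2 of 7. Over all 18193 genes, 3 were above every other control in all 7 arrays, namely Slc6a7, on average by 1.46, Pcdhb15 by 0.37 and Dclk1 by 0.17. Slc6a7 is among them by the choice of arrays, and the other two are named for this count alone, after their values had been seen. How many genes would lie so by chance was not worked out, so the count shows no shared trait of these arrays.

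Sex was read from Xist in the tissue arrays. All GLP tissue arrays had Xist over 8 times the array median, the 4 overlapping controls included. The 3 overlapping G9a controls had no such Xist signal. In each of their groups 1 other control had none either. Its Slc6a7 was 5.25 in the hippocampus, 4.79 in the hypothalamus and 3.68 in the striatum. The part of sex in the levels of Slc6a7 was not tested. The labels give these 7 arrays as controls without Cre, and for the G9a hypothalamus array numbered 4 the source name says mouse 5. Whether any carries the driver was not tested. Equal numbers may or may not be the same mouse, since the sources used here do not give whether regions share animals. None of the pools had Xist over 8 times the array median. Xist is not translated and the pools held RNA bound to ribosomes, so this does not give their sex. Xist and the 3 measured Y-linked genes summed to 3.66 to 25.7 in Drd1-MSN mutants, against 2.00 to 2.89 in controls. That sum joins a female marker with male ones and cannot give the sex either. Whether these pools differ in sex was not tested.

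Arsi, the sulfatase gene, rose in the hippocampus of both lines. In the GLP hippocampus it stood at 3.08, 2.99, 3.20 and 3.13 in mutants, against -0.18, 0.20, -0.35 and 2.27 in controls. In the G9a hippocampus it stood at 3.42, 3.79, 4.19 and 3.64 in mutants, against 0.26, 3.17 and 0.19 in controls. All mutants lay above all controls, as for 3.96% of genes in the GLP and 7.82% in the G9a hippocampus, and the 1 high control in each region was the array that was also high in Slc6a7. The change was 2.62 (SE 0.38, limma, adjusted p = 2.96e-06) with GLP deleted and 2.55 (SE 0.41, limma, adjusted p = 2.03e-05) with G9a deleted. Without the high control it was 3.21 and 3.53, and over all fits that left out 1 array it lay between 2.34 and 3.21 and between 2.04 and 3.53. Fitted on the G9a hippocampus arrays alone, the second change did not pass (limma, adjusted p = 0.0592).

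Cortical Arsi followed at a level near the array median. In the GLP cortex it stood at 0.56, 0.41, 0.24 and 0.36 in mutants, against -1.14, -1.08, -1.19 and 0.12 in controls. In the G9a cortex it stood at 0.31 and 0.40 in mutants, against -0.83 and -1.01 in controls. The arrays did not overlap in either, which held for 5.83% and 18.4% of the genes tested there, and control 4 of the GLP cortex was the high control once more. The changes of 1.22 (SE 0.38, limma, adjusted p = 0.119) and 1.28 (SE 0.54, limma, adjusted p = 1) did not pass. As the control means lay below the array median, folds are given from that median to the mutant means, 1.31 and 1.28. They bound the fold between the means from below and make no allowance for the spread between arrays. Without control 4, picked for its high value, the change in the GLP cortex was 1.53 (limma, adjusted p = 0.0250), which describes what the missing call rests on and is no independent test.

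In hypothalamus and striatum, Arsi stayed mostly below the array median in both groups, its changes lay between 0.12 and 0.35, and it was too dim to be tested. By a moderated F test within limma its change differed across the 4 regions in the GLP line (adjusted p = 0.00929), where 1.08% of genes passed. In the G9a line it differed as well (adjusted p = 0.0319), where 1.37% did. This test includes the dim values of hypothalamus and striatum, where a change could go unmeasured. It therefore cannot tell a smaller change there from one below the range of the signal. The first call was lost without control 3 of the GLP hippocampus. The second was lost without any 1 of 7 arrays, namely mutants 2, 3 and 4 or controls 1 and 3 of the hippocampus, mutant 3 of the hypothalamus and mutant 3 of the striatum, and also with the replicate number as a block (adjusted p = 0.0747) and with only the G9a tissue groups in the fit (adjusted p = 0.100). Slc6a7 and Cd74 did not pass this test in either line (lowest adjusted p = 1.00), which does not show that their changes were equal across regions. Over the 8 tissues Arsi averaged a change of 1.07 (SE 0.14, limma, adjusted p = 9.43e-08).

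In the hippocampus, markers of other cells differed too. Choroid plexus markers summed to 1254, 1253, 1196 and 1097 in GLP mutants, against 1007, 458.4, 318.9 and 916 in controls, and 8 of their 9 genes rose. GLP control 1, with choroid plexus markers at 1007, had Arsi at -0.18 and Slc6a7 at 5.00. GLP control 4, at 916, had Arsi at 2.27 and Slc6a7 at 7.12. In the G9a hippocampus the sums were 143.7 to 523.9 in mutants, against 79.0 to 192.4 in controls, and Cldn2 rose by 3.06. G9a control 2, with the lowest sum of its region at 79.0, had Arsi at 3.17 and Slc6a7 at 7.50. The 5 measured markers of excitatory neurons summed to 193 to 238.1 in G9a hippocampus mutants, against 293 to 302 in controls, and G9a control 2 lay at 293. Their part in the changes of Arsi and Slc6a7 was not tested further.

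Cd74, the MHC class II invariant chain, was dim throughout, with a mean of -0.11 over all arrays. In the GLP hippocampus it stood at 0.48, 0.30, 0.16 and 0.18 in mutants, against -0.08, -0.34, -0.87 and -0.23 in controls. In the GLP cortex it stood at 0.22, 0.59, 0.23 and 0.24 in mutants, against -1.19, -0.20, -0.42 and -0.21 in controls. In the G9a striatum it stood at 0.38, 0.20, 0.05 and 0.37 in mutants, against -0.49, -0.13, -0.55 and -0.56 in controls. No array overlapped in these 3 regions, nor in the GLP hypothalamus and striatum or the G9a cortex. The other 2 regions overlapped, the G9a hypothalamus through control 1 at 1.03, the highest value of all.

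The share of tested genes with every mutant above every control was 3.96%, 1.87%, 2.76% and 5.83% in the GLP hippocampus, hypothalamus, striatum and cortex, and 6.11% in the G9a striatum. The change in Cd74 lay between 0.59 and 1.01, with a lowest adjusted p of 0.104 by limma in the GLP cortex (change 0.83, SE 0.25). The fold from the array median to the mutant mean was 1.25 there, with no allowance for the spread between arrays. It was too dim to be tested in the GLP hypothalamus and striatum. The average over the 8 tissues was 0.77 (SE 0.096, limma, adjusted p = 1.49e-08). In the controls that overlapped in Slc6a7, Cd74 was below every mutant of its region in 6 of those 7 arrays.

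Cd74 is made by microglia and other antigen-presenting cells, whose markers were set beside it. The 13 markers of microglia and macrophages summed to 221.9 to 278.2 in GLP hippocampus mutants, against 208.5 to 252.5 in controls. They summed to 151.1 to 186.6 in GLP cortex mutants, against 173.5 to 190 in controls, and to 245.4 to 309.1 in G9a striatum mutants, against 252.9 to 292.2 in controls. The ranges overlapped in 8 of 8 tissue comparisons, and Itgam was below the array median in every array of these groups. Lyz2 rose in both hippocampi, by 0.78 and 0.80, and Cd163 and Mrc1 in that of the G9a line, by 1.73 and 0.86, with no marker called in the other regions. Of 6 markers of MHC class II cells 5 were measured. They summed to 6.55 to 8.02 in GLP hippocampus mutants, against 5.26 to 6.20 in controls, with Ciita, the master regulator of the class, below the array median in every array. These sums also separated in the G9a cortex, at 8.66 to 9.43 in mutants, against 5.62 to 7.07 in controls, and overlapped in the other 6 tissue comparisons. In the GLP striatum, where Cd74 itself did not overlap, they were 5.56 to 6.84 in mutants, against 5.94 to 7.67 in controls. The part of these cells in the change of Cd74 was not tested.

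**Figure D3:**
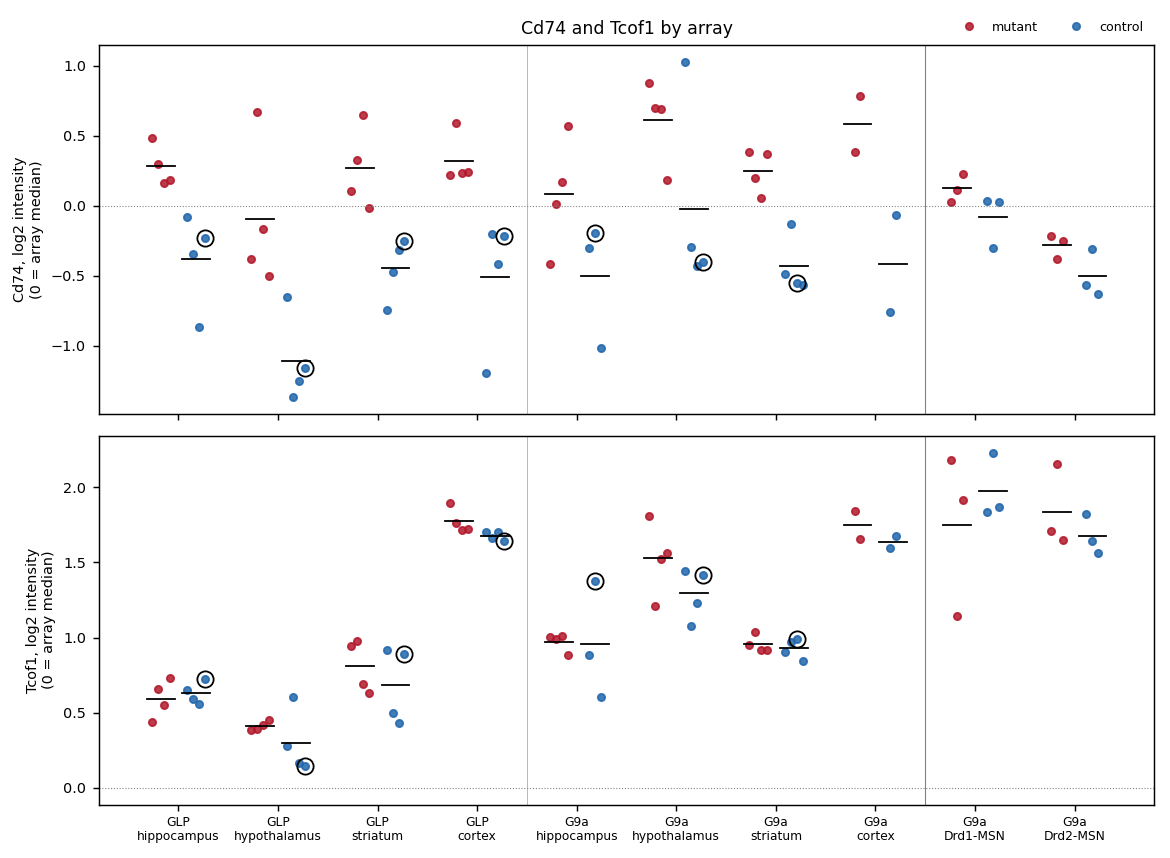
Levels of Cd74 (upper panel) and of its neighbour Tcof1 (lower panel) in each of the 71 arrays, as log2 intensity with 0 at the array median. Red points are mutants, blue points controls, black lines group means, and rings mark the 7 control arrays whose Slc6a7 lies above the lowest mutant. In the GLP cortex Cd74 lies at 0.22 to 0.59 in mutants and -1.19 to -0.20 in controls.

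Camk2a, whose promoter drives Cre in the tissues, passed in no comparison of mutants with controls. In the hippocampus it stood at 7.55, 7.62, 7.43 and 7.40 in GLP mutants, against 7.76, 7.82, 7.52 and 7.30 in controls, and at 7.04, 7.41, 7.77 and 7.50 in G9a mutants, against 7.03, 7.97 and 7.47 in controls. The arrays overlapped in every tissue comparison. Its change lay between -0.14 and 0.15, with an average of -0.00 over the 8 tissues (SE 0.062, limma, adjusted p = 1.00). Of its 6 probe sets, the 4 bright enough to be tested in that average gave 0.05, -0.13, -0.03 and -0.00, none past the test.

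The other 4 neighbours had small differences. Tcof1, the ribosomal RNA factor, differed by -0.04 to 0.23 over the 8 tissues, with an average of 0.09 (SE 0.046, limma, adjusted p = 0.263). In the GLP cortex all its mutants were above all controls by a change of only 0.10. Synpo, the spine protein, differed by -0.09 to 0.26 (average 0.05, SE 0.075, limma, adjusted p = 0.779), and Rbm22, the splicing factor, by -0.08 to 0.14 (average 0.03, SE 0.043, limma, adjusted p = 0.789). Myoz3, the muscle protein, had a mean of -2.90, far under the array median in all arrays, and was tested in no comparison.

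**Figure D4:**
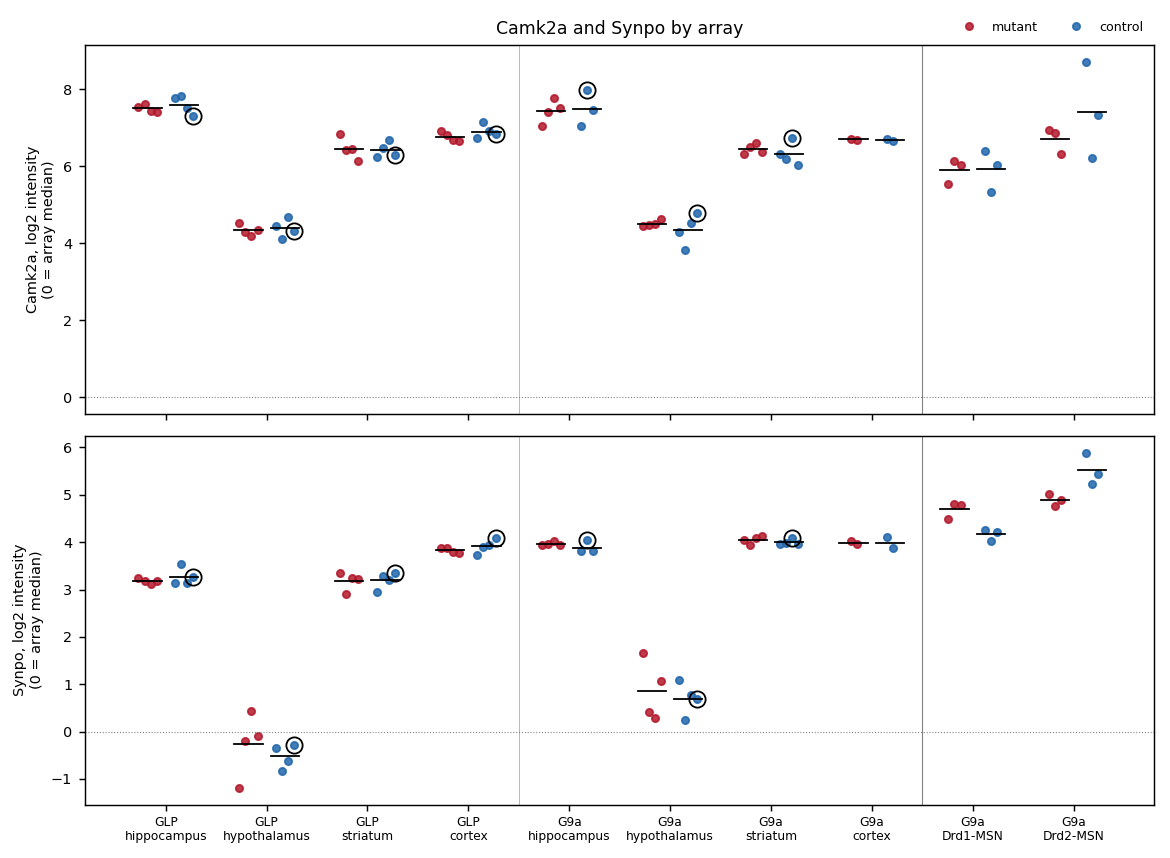
Levels of Camk2a (upper panel) and Synpo (lower panel) in each of the 71 arrays, as log2 intensity with 0 at the array median. Red points are mutants, blue points controls, black lines group means, and rings mark the 7 control arrays whose Slc6a7 lies above the lowest mutant. Both genes are lowest in the hypothalamus, and Drd2-MSN control 1 has Camk2a at 8.71, above the other 2 controls at 6.20 and 7.32.

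The pools, in which other drivers made the mutants, did not show the tissue pattern for Slc6a7. It stood at 4.03, 3.10 and 3.78 in Drd1-MSN mutants, against 3.96, 3.88 and 4.52 in controls, and at 4.32, 4.20 and 4.06 in Drd2-MSN mutants, against 5.87, 3.86 and 4.23 in controls. The groups overlapped, and Drd2-MSN control 1, which was also high in Camk2a (8.71), lay apart. Its excitatory neuron markers summed to 141, against 50.2 to 74.1 in the mutants and 64.8 and 63.0 in the other controls, and their part was not tested. The changes were -0.48 and -0.46 (SE 0.46 each, limma, adjusted p = 0.943 and 1.00), and without that control the second was 0.15 (limma, adjusted p = 1.00), a turn of direction. The average tissue change exceeded the average pool change by 1.55 (SE 0.36, limma, adjusted p = 0.0136), in a test added after the values had been seen in which 0.955% of genes passed. Without Drd2-MSN control 1 the difference was 1.24 (limma, adjusted p = 0.0784).

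Arsi stood between -0.75 and 0.48 in pool mutants and between -0.64 and 0.10 in pool controls, too dim to be tested. Its difference between tissue and pool changes, 0.98 (SE 0.33), did not pass (limma, adjusted p = 0.141), nor did that of Cd74, 0.55 (SE 0.22, limma, adjusted p = 0.202). Cd74 in the pools differed by 0.20 in Drd1-MSN (limma, adjusted p = 0.943) and by 0.22 in Drd2-MSN, where it was too dim to be tested. Set against the G9a striatum alone, the region the pools come from, none of the 7 genes tested differed in its change from Drd1-MSN or Drd2-MSN, where 0.159% and 0.161% of genes did. For Slc6a7 these differences were 1.63 (SE 0.61, limma, adjusted p = 0.182) and 1.61 (SE 0.61, limma, adjusted p = 0.490). Pools differ from tissues in driver, cell type, RNA fraction and pooling, and these cannot be told apart. Whether pools and tissues also differ in sex was not tested. In the tissues, presence of Camk2a-Cre and loss of the enzyme cannot be told apart.

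Synpo, the spine protein, separated mutants from controls in both pools, with opposite signs. It stood at 4.50, 4.79 and 4.80 in Drd1-MSN mutants, against 4.03, 4.22 and 4.25 in controls, listed from low to high. In Drd2-MSN it stood at 4.75, 4.90 and 5.01 in mutants, against 5.23, 5.44 and 5.89 in controls. The groups did not overlap in either, as for 2.90% of genes with all mutants above all controls in Drd1-MSN and 2.54% with all mutants below them in Drd2-MSN, but the changes of 0.53 and -0.63 (SE 0.23 each) did not pass (limma, adjusted p = 0.943 and 1.00). The neighbours of the drivers that were used in the pools were read as well. Of 3 measured genes at most on each side of Drd1 and Drd2, none passed in either pool comparison, the largest differences being -0.74 for Ttc12 in Drd2-MSN and -0.69 for Tmprss5 in Drd1-MSN, both near Drd2.

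The change on loss of GLP and that on loss of G9a were compared in each region. The lines also differed in sex as read from Xist. All GLP tissue arrays had Xist over 8 times the array median. In the G9a line 2 of 4 had it in hippocampus mutants and in each group of hypothalamus and striatum. In G9a hippocampus controls 1 of 3 had it, and in the G9a cortex 0. Line and sex therefore cannot be told apart in the cortex and are partly mixed in the other regions. Of the genes bright enough to be tested, 7 in hippocampus and cortex and 6 in hypothalamus and striatum, none differed between the lines by limma at an adjusted p under 0.05, where 0.157% (hippocampus), 0.00831% (hypothalamus), 0.00842% (striatum) and 0.0168% (cortex) of genes did. For Arsi in the hippocampus the difference was 0.07 (SE 0.56), an SE that leaves room for a difference of the order of 1 in either direction.

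In control tissue the levels differed across regions for all 6 genes bright enough to be tested, Arsi, Camk2a, Rbm22, Slc6a7, Synpo and Tcof1, by a moderated F test in limma that 93.9% of genes passed. Camk2a was highest in the hippocampus at 7.54 (controls between 7.03 and 7.97), followed by the cortex at 6.78 (6.64 to 7.14), the striatum at 6.37 (6.03 to 6.72) and the hypothalamus at 4.37 (3.82 to 4.77). Each neighbouring pair in that order differed, as 63.9% (hippocampus minus cortex), 68.2% (striatum minus cortex) and 73.1% (hypothalamus minus striatum) of genes did. The smallest gap, striatum minus cortex, was -0.42 (SE 0.13, limma, adjusted p = 0.00395). Synpo followed another order, with the cortex at 3.95, the striatum at 3.60, the hippocampus at 3.58 and the hypothalamus at 0.09. Hippocampus and striatum differed by -0.02 (SE 0.15, limma, adjusted p = 0.923), within their spread, where 52.7% of genes passed.

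Slc6a7 in controls ran from 5.77 in the hippocampus to 5.11 in the cortex, 4.41 in the hypothalamus and 3.79 in the striatum, with ranges whose upper ends are the overlapping controls (5.00 to 7.50, 4.84 to 6.40, 3.23 to 5.41 and 3.18 to 4.99). Hippocampus and cortex did not differ past the threshold (difference 0.65, SE 0.32, limma, adjusted p = 0.0683). Tcof1 was highest in the cortex at 1.66 and between 0.79 and 0.81 in the other regions. Rbm22 ran from 3.92 in the hippocampus to 2.82 in the hypothalamus. Cd74 lay between -0.57 and -0.44 in all regions, where no level above the array median could be ranked. Arsi was above the array median only in the hippocampus, at 0.85, a mean that rests on the high controls of the range -0.35 to 3.17.

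Polyribosome pools of control mice were set against G9a striatum controls. Of the 8 genes, Camk2a, Rbm22, Slc6a7, Synpo and Tcof1 were bright enough to be tested. In Drd1-MSN only Tcof1 passed, higher by 1.05 (SE 0.16, limma, adjusted p = 5.12e-08), where 71.9% of all tested genes did. In Drd2-MSN, where 68.3% passed, Synpo was higher by 1.52 (SE 0.21, limma, adjusted p = 8.30e-09), Camk2a by 1.10 (SE 0.26, limma, adjusted p = 0.000257) and Tcof1 by 0.75 (SE 0.16, limma, adjusted p = 4.21e-05). Camk2a there stood at 8.71, 6.20 and 7.32, against 6.30, 6.19, 6.72 and 6.03 in striatum controls, so that 1 pool overlapped. The call for Camk2a rests on control 1, the pool with excitatory neuron markers at 141, for without it the difference was 0.45 (limma, adjusted p = 0.0934), while Synpo and Tcof1 still passed.

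Genes that work with each neighbour were read from lists, and 0 to 2 of a list passed in a comparison. Of 18 measured genes around CaM kinase II 1 rose in the GLP hypothalamus, the NMDA receptor subunit Grin2b (0.58), and 2 rose in the G9a striatum, the kinases Camk1 (0.53) and Camk1g (0.61), with 0 in the other 8 comparisons. Of 12 sulfatases and their activating enzymes 1 rose in the GLP hippocampus, Sulf1, which edits heparan sulfate outside cells, by 2.08 (SE 0.26, limma, adjusted p = 5.23e-08), and 0 elsewhere. Among spine proteins Homer1 fell by 0.43 in the GLP striatum, and among spliceosome genes Cdc5l rose by 0.32 in the G9a hypothalamus. None of the genes tested passed in any of the 10 comparisons among Slc6 transporters (6 to 9 of 14 bright enough to be tested), ribosomal RNA synthesis genes (17 of 17), MHC class II genes (5 to 8 of 11), heparan sulfate genes (19 of 23) and partners of Myoz3 (2 to 4 of 9). The median change of the Slc6 transporters lay between -0.12 and 0.28, and that of the MHC class II genes between -0.45 and 0.38, while all tested genes had medians between -0.09 and 0.04.

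The genes most like Camk2a and Arsi in pattern were found by Pearson correlation, as a description over points that share arrays. Over the 20 group means, 13371 genes compared, Camk2a went most closely with Sv2b (r = 0.97), a synaptic vesicle protein, and then with Lhx2, Neurl1b, Bcl7a and Emx2. Arsi went most closely with Fam160a1 (r = 0.92), then Mettl24, Vwa3b, Ms4a6b and Krt79. Over the 10 changes, Arsi went with Asb5 and Col22a1 (r = 0.97 and 0.96), Ocln, Parvg and Hey2. None of these lies among the neighbours of Camk2a described here.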

How the data were processed

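Labelled RNA was read on 71 oligonucleotide arrays. The deposited values are intensities on a linear scale that the authors made with GCRMA, per the submitters' processing notes, which corrects background by probe sequence and summarises probes into probe sets. Every array had a median of 1, so log2 of a value is relative to its array median. The lowest value was 0.0271. The sources used here give neither the GCRMA version nor the arrays normalised together. Of 45101 probe sets, 64 controls were left out, and 34945 were annotated with a single gene. Another 932 had several, and 9160 were unnamed. Gene order came from a RefSeq gene table. No pair of arrays was a duplicate (highest correlation 0.998). Groups and numbers came from the titles, and the source name of 1 G9a hypothalamus control gives another number.

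Means per group were estimated by limma 3.58.1 under R 4.3.3 (tables with Python 3.11.15 and pandas 2.3.3). The 16 tissue groups shared a fit, as did the 4 pool groups, and comparisons across both used all 71 arrays. The empirical Bayes step had an intensity trend. To be tested, a gene had to exceed its array median in as many of the compared arrays as make up the smaller group, so that genes dim in both groups were left out. The fit was tested on simulated data. A fold is given as a lower bound on the fold between means, from the array median, where the lower group lay below it. Such a bound makes no allowance for the spread between arrays. Named are the 9 genes, genes called within 1 megabase, Ehmt1 and Ehmt2, called genes of the lists, neighbours of Drd1 and Drd2 and the 5 genes most alike in pattern. Dach2 was added afterwards. Members and lists were chosen with earlier results of these data known. The main fits paired no arrays, in Drd2-MSN as elsewhere. Replicate numbers entered as a block only in an alternative setting, for the comparisons of changes. As a check on pairing, the deviations of equal numbers were correlated. Every pair exceeded 0.1 only in Drd2-MSN (0.163 to 0.492), while pairs of the G9a hypothalamus ran from -0.06 to 0.62.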

Additional observations from a re-analysis of the deposited data

Results flagged for a closer look

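A single array far from the rest of its group (a gap above Dixon's critical value) was found in 15 of 104 groups of 4 arrays tested over the 8 genes, where chance gives about 1 in 20. For Slc6a7 these were control 4 of the GLP hippocampus (7.12, the others 5.00 to 5.25), of the GLP striatum (4.61, the others 3.23 to 3.44) and of the GLP cortex (6.40, the others 4.84 to 4.96), and mutant 1 of the GLP hypothalamus (4.41). For Arsi it was control 4 of the GLP cortex (0.12, the others -1.19 to -1.08). Control 4 thus lay apart in several regions of the GLP line, and the report gives the results without it.

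For Cd74 they were mutant 2 of the GLP cortex (0.59) and control 1 of the G9a hypothalamus (1.03). With all arrays Cd74 did not pass in the G9a hypothalamus (limma, adjusted p = 0.176), and without that control it did. The control stood out by its high Cd74, so that the larger change without it follows in part from the choice. For Tcof1 it was mutant 4 of the G9a hippocampus (0.88) and for Synpo mutant 3 of the G9a hippocampus (4.02). Myoz3, under the array median throughout, had mutant 2 of the GLP hippocampus (-2.65), control 4 of the G9a hypothalamus (-2.50) and control 3 of the G9a striatum (-3.07). Rbm22 had mutant 1 of the GLP cortex (3.35), mutant 2 of the G9a hypothalamus (2.47) and control 4 of the GLP striatum (3.69).

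Effects differed between groups in 3 tests. Those on Arsi include hypothalamus and striatum, where it lay mostly below the array median. They cannot tell a smaller change there from an unmeasured one. The change in Arsi differed across regions in the GLP line (adjusted p = 0.00929, moderated F test in limma) and in the G9a line (adjusted p = 0.0319, moderated F test in limma), and the change in Slc6a7 differed between tissues and pools (adjusted p = 0.0136, limma). The first was lost without 1 control array, the second without any 1 of 7 arrays, with the replicate block and in the fit of the G9a tissue groups alone, and the third without Drd2-MSN control 1 (limma, adjusted p = 0.0784).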

How the results depend on the processing

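The rise of Arsi in the hippocampus kept its direction under every setting tried, which were no filter on low values, a floor at the array median, log2(value + 1), quantile normalization, no variance trend, every probe set alone, a fit of the compared groups alone, the replicate block and leaving out each array. Fitted on the compared groups alone, it was 2.55 in the G9a hippocampus (limma, adjusted p = 0.0592), so that 0 genes passed there, and 1 passed in the GLP cortex (Arsi), 1 in the G9a striatum (Cd74), 2 in the G9a cortex (Arsi and Slc6a7) and 0 in the G9a test across regions. Without the filter, 1 passed in the GLP hypothalamus (Cd74) and 2 for Drd1-MSN against striatum controls, where quantile normalization gave 3.

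Leaving out 1 array at a time gave 1 to 2 genes in the GLP and G9a hippocampus, 0 to 2 in the GLP cortex, 0 to 1 in the G9a hypothalamus and striatum, 0 to 1 in both tests across regions and in the G9a striatum against either pool, and 2 to 4 in Drd2-MSN against striatum controls. The change in Arsi was then 2.34 to 3.21 (GLP) and 2.04 to 3.53 (G9a), the tissue averages were 1.01 to 1.19 (Arsi), 0.72 to 0.81 (Cd74) and 1.02 to 1.17 (Slc6a7), and the difference between tissues and pools in Slc6a7 was 1.24 to 1.74. With the replicate number as a block, 0 genes passed in the G9a test across regions and no other count moved. The deviations of equal numbers correlated over 0.1 in every pair only in Drd2-MSN, where the block changed no call. Signal over background limits Arsi, Cd74 and Myoz3, which lay near or under the array median in most groups.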
